A study of Homo sapiens with 6 samples.

Results

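The DNA damage checkpoint kinases and mediators described here are 9 genes (ATM, ATR, ATRIP, TOPBP1, CHEK1, CHEK2, MDC1, RNF8 and RNF168), taken by symbol from the 29804 gene symbols of the count table. Each of the 9 was found under its symbol, and each was among the 14672 genes that passed the filter on low counts. RNA was sequenced from 22Rv1 cells, a human prostate carcinoma epithelial line. WT cells received no drug and were taken at week 0, AM (age matched) cells were kept in culture for 6 weeks without drug, and 6WP cells were given phleomycin, a radiomimetic that breaks DNA, at 1 µg/ml on week days for 6 weeks. Each group had 2 libraries, named biological replicates in the labels, and no agent or allele other than phleomycin set the groups apart. The labels do not say whether replicates came from separate cultures, so p-values measure the spread between these libraries, which may be technical. The cells come from 1 line, and because the 6WP cells were those left after 6 weeks of treatment, a change within cells and a change in which cells remained cannot be told apart.

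Broken DNA is signalled by a relay of kinases. ATM is switched on at broken ends, whereas ATR is brought by its partner ATRIP to single-stranded DNA and needs TOPBP1 to become active. ATM acts mainly through the kinase CHEK2, and ATR through the kinase CHEK1, and these slow the cell cycle while repair proceeds. Around a break, MDC1 binds the phosphorylated histone H2AX and recruits the ubiquitin ligase RNF8, whose mark is extended by the ligase RNF168. Much of this pathway works by phosphorylation and ubiquitin, which RNA levels do not measure.

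Promoters of genes that vary with proliferation often hold sites for E2F factors, a cell cycle homology region (CHR) or CCAAT boxes, so these letters were searched in 1 RefSeq promoter window per gene, the one nearest the annotated gene start (GRCh38, 250 bases before to 50 after the start). RefSeq lists further windows for CHEK1 (3 in all), ATM and ATRIP (2 each), which were not searched. Windows were set by the RefSeq start, and those of CHEK1, CHEK2 and TOPBP1 lay wholly downstream of the annotated gene start. For these genes the sequence at the annotated start was not searched. The stretches printed here are read along each gene's strand with the matched letters in capitals, and they were chosen to show the match of genes whose levels differed between groups, with ATM shown beside them because its level did not pass the test.
TOPBP1, chr3:133661930-133661959, minus strand: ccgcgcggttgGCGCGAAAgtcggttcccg
MDC1, chr6:30717395-30717422, minus strand: gacaccacctaTTTGAActctaaggggg
ATM, chr11:108223036-108223063, plus strand: gtcacgcagggTTTGAAccggaagcggg
CHEK1, chr11:125626113-125626139, plus strand: tagcgcaggggATTGGagagactcctg
CHEK2, chr22:28741875-28741901, minus strand: tgctgctcctcATTGGtccggcggcag
ATRIP, chr3:48446700-48446726, plus strand: cctgccagctgATTGGcccctgggcca
The E2F letters searched were TTTCCCGC, TTTCGCGC, TTTGCCGC and TTTGGCGC on both strands, and they occurred in 3.31% of all 35116 promoter windows. Among the 9 windows, that of TOPBP1 held an E2F match, as the reverse complement of TTTCGCGC. The CHR letters TTTGAA were in 15.2% of all windows and matched in MDC1 and ATM. CCAAT, or ATTGG on the other strand, was in 34.6% of all windows and matched in ATM, ATRIP, CHEK1, CHEK2, MDC1 and RNF8, with 3 matches in CHEK2. ATR and RNF168 had no match to these letters in their windows. A match is a description of letters only, and the shares show how often these letters are met in any promoter.

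The cells carried the RNA of prostate epithelium, since all 9 prostate epithelial markers examined were above 3 counts in every library. Markers of fibroblasts, leukocytes and endothelium were near absent: their 8 genes summed to between 1.77 and 4.05 CPM (counts relative to the TMM-scaled library size) in a library, and PTPRC and CDH5 had 0 counts in all 6 libraries. Library totals ran from 21222201 to 35311945 counts, so that a floor of 3 counts lay between 0.0850 and 0.141 CPM, which covers counting error only. The 6WP libraries differed from each other more than the other pairs did, with a median absolute difference of 0.28 (log2 CPM) against 0.12 in WT and 0.13 in AM cells. A list of 17 proliferation genes, relative to its WT mean, summed to 1.05 and 0.955 in WT, 1.57 and 1.66 in AM, and 0.897 and 0.560 in 6WP libraries. Proliferation RNA thus stood higher in AM cells and lower in both 6WP libraries, more so in the second, and its part in the results of the 9 genes was not tested. Exact permutation of 2 libraries against 2 (two-sided) cannot give a p under 0.333, so the adjusted p-values given are those of edgeR's quasi-likelihood test (two-sided, Benjamini-Hochberg over all tested genes, threshold 0.05).

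To compare levels between genes, counts were divided by the length of the MANE Select transcript (RPKM). In WT cells CHEK2 was highest at 21.5 ± 1.96 RPKM (SD, n = 2), followed by MDC1 at 17.3 ± 0.588, TOPBP1 at 16.4 ± 0.975 and CHEK1 at 15.0 ± 0.954. RNF168 stood at 8.45 ± 0.261 and RNF8 at 4.50 ± 0.268 RPKM. ATRIP at 3.23 ± 0.464, ATR at 2.80 ± 0.100 and ATM at 2.43 ± 0.171 RPKM were lowest. The effector kinases and TOPBP1 were therefore several times more abundant as RNA than the apical kinases ATM and ATR. Neighbours that overlapped between WT libraries were MDC1 and TOPBP1, and no other adjacent pair did. In AM cells CHEK2 and MDC1 overlapped, at 28.0 ± 0.330 and 28.0 ± 0.992 RPKM, and ATRIP at 6.06 ± 0.432 stood above RNF8 at 4.17 ± 0.0291. The 6WP libraries spread so far that CHEK2, at 13.7 and 20.0 RPKM, and TOPBP1, at 11.9 and 12.4, both overlapped with MDC1, at 8.14 and 15.8. The order at the top depends on the length used, since dividing by all annotated exons put CHEK2 at rank 4 over the 6 libraries and MDC1 at rank 1. The means of ATRIP and RNF8 over the 6 libraries were close, at 4.36 and 4.35 RPKM by MANE length and 3.68 and 3.72 by all exons.

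The comparison of 6WP with AM cells sets the drug against untreated cells of the same time in culture. TOPBP1, CHEK1, CHEK2, MDC1 and ATRIP were lower in 6WP cells, at 42.9% to 62.7% of the AM level. None of the 9 genes was called higher, while ATM and RNF8 had positive values. The call was made for 5 of 9 genes, all lower, where 21.3% of all tested genes were called, 9.68% lower and 11.7% higher. The median log2 fold change of the 9 genes was -0.67, against 0.05 over all tested genes. The groups did not overlap for 7 of the 9, all lower in 6WP cells, where 28.5% of all genes were lower without overlap. RNF8 and ATM were the genes whose libraries overlapped.

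**Figure D1:**
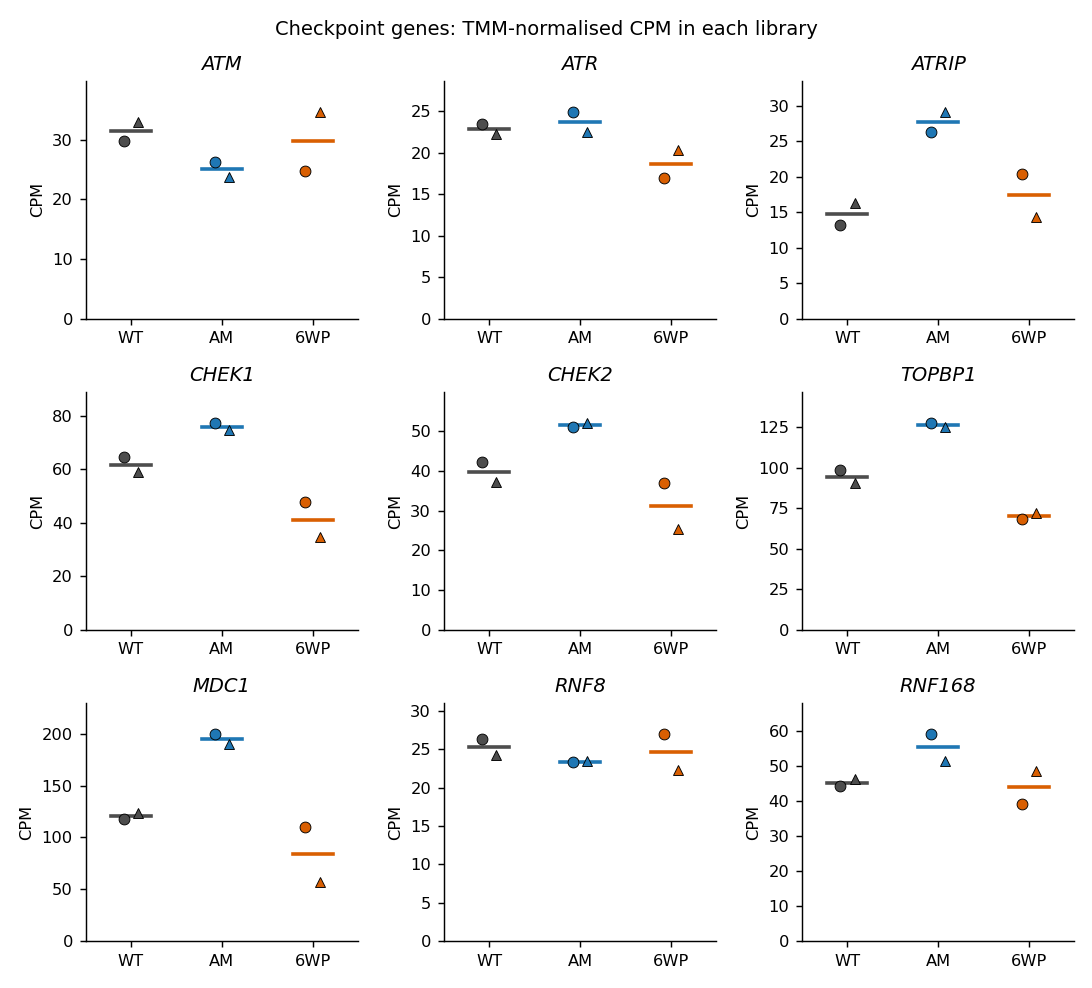
TMM-normalised CPM of each of the 9 genes on a linear axis from 0, with a circle for replicate 1, a triangle for replicate 2 and a bar for the mean of the 2 libraries of WT, AM and 6WP cells. The AM libraries of TOPBP1, CHEK1, CHEK2, MDC1 and ATRIP stand above both 6WP libraries, and the 6WP libraries of MDC1 lie far apart at 110.5 and 56.7 CPM.

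The apical kinases did not pass the test. ATM (chr11:108223044-108369102, plus strand) had 29.8 and 32.9 CPM in WT, 26.3 and 23.8 in AM, and 24.8 and 34.6 in 6WP libraries. The 6WP libraries lay far apart, the first between the AM libraries and the second above WT. The log2 fold change against AM was 0.25 (95% interval -0.15 to 0.65, adjusted p = 0.323), which includes 0. ATR (chr3:142449007-142578733, minus strand) had 23.4 and 22.3 CPM in WT, 24.9 and 22.6 in AM, and 17.0 and 20.3 in 6WP libraries. Both 6WP libraries were below the other 4, yet the difference from AM of -0.35 on the log2 scale (95% interval -0.67 to -0.02) had an adjusted p of 0.116.

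ATRIP and TOPBP1, the partner and the activator of ATR, were the genes that passed the test both between 6WP and AM and between AM and WT cells. TOPBP1 (chr3:133598175-133662380, minus strand) had 98.4 and 90.5 CPM in WT, 127 and 125 in AM, and 68.6 and 71.7 in 6WP libraries. The 3 groups were separate, with AM highest, 6WP lowest and little distance between replicates. TOPBP1 fell by 0.85 on the log2 scale against AM (SE 0.10, adjusted p = 0.00354), to 55.5% of the AM level. ATRIP (chr3:48446710-48467645, plus strand) had 13.3 and 16.3 CPM in WT, 26.3 and 29.1 in AM, and 20.5 and 14.3 in 6WP libraries. Its AM libraries were the highest, and its 6WP libraries lay from the WT range up to about midway between WT and AM. ATRIP fell by 0.67 against AM (SE 0.19, adjusted p = 0.0422). This call was lost when counts were scaled by upper quartiles (adjusted p = 0.0630) or by library size alone (adjusted p = 0.0644). It was also lost when only AM and 6WP libraries were fitted (adjusted p = 0.0756) and with a replicate block. With a library left out, the log2 fold change ran from -0.96 to -0.47.

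ATRIP shares 31.6% of its MANE transcript with TREX1, an exonuclease gene on the same strand, and reads from the shared part cannot be assigned to either by sequence. TREX1 had 33.1 and 38.4 CPM in WT, 37.0 and 49.5 in AM, and 41.2 and 29.0 in 6WP libraries. The 3 groups of TREX1 overlapped, and its log2 fold changes were 0.28 for AM against WT (adjusted p = 0.359) and -0.31 for 6WP against AM (adjusted p = 0.304). How the counting treated shared reads is not given in the sources used here, so the ATRIP values are uncertain to that extent.

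The effector kinases were both lower in 6WP than in AM cells. CHEK1 (chr11:125625163-125676255, plus strand), the kinase downstream of ATR, had 64.6 and 59.0 CPM in WT, 77.3 and 74.7 in AM, and 47.6 and 34.6 in 6WP libraries. Its groups did not overlap in any comparison. CHEK1 fell by 0.89 on the log2 scale against AM (SE 0.16, adjusted p = 0.00978), to 54.1% of that level. CHEK2 (chr22:28687743-28742422, minus strand), the kinase downstream of ATM, had 42.3 and 37.2 CPM in WT, 51.2 and 52.1 in AM, and 36.8 and 25.3 in 6WP libraries. The higher 6WP library came close to the lower WT library, while both were clear of AM. CHEK2 fell by 0.73 against AM (SE 0.18, adjusted p = 0.0250), to 60.2%, and was not called when only AM and 6WP libraries were fitted (adjusted p = 0.0589). An unnamed RNA gene on the opposite strand overlaps 18.2% of the CHEK1 transcript, and the strand setting of the counting is not given in the sources used here. None of the 100-base windows of CHEK2 was identical to a stretch in a transcript of another gene. Copies with mismatches were not searched, so reads shared with near-identical sequences are not excluded.

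MDC1 (chr6:30699807-30717447, minus strand), the adaptor at phosphorylated H2AX, had the largest difference of the 9 genes and the least agreement between 6WP libraries. It had 117 and 123 CPM in WT, 199.7 and 190.0 in AM, and 110.5 and 56.7 in 6WP libraries. The first 6WP library was close to WT and the second was at less than 50% of any WT library. MDC1 fell by 1.22 on the log2 scale against AM (SE 0.26, adjusted p = 0.0171), to 42.9% of the AM level. Without the second 6WP library the log2 fold change was -0.85, and without the first it was -1.78. MDC1-AS1, on the opposite strand, overlaps 10.1% of its transcript.

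The ubiquitin ligases behaved less uniformly and neither passed the test. RNF8 (chr6:37353979-37394734, plus strand) had 26.3 and 24.2 CPM in WT, 23.3 and 23.5 in AM, and 27.0 and 22.3 in 6WP libraries. Its 6 libraries lay within the narrowest span of the 9 genes relative to their level, and the 6WP libraries enclosed the other 4. The 95% interval of its log2 fold change against AM ran from -0.24 to 0.39 (adjusted p = 0.726). RNF168 (chr3:196468783-196503768, minus strand) had 44.2 and 46.2 CPM in WT, 59.1 and 51.6 in AM, and 39.3 and 48.5 in 6WP libraries. Both 6WP libraries were below AM and on either side of WT. The log2 fold change of RNF168 against AM was -0.33 (95% interval -0.65 to -0.02, adjusted p = 0.119).

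**Figure D2:**
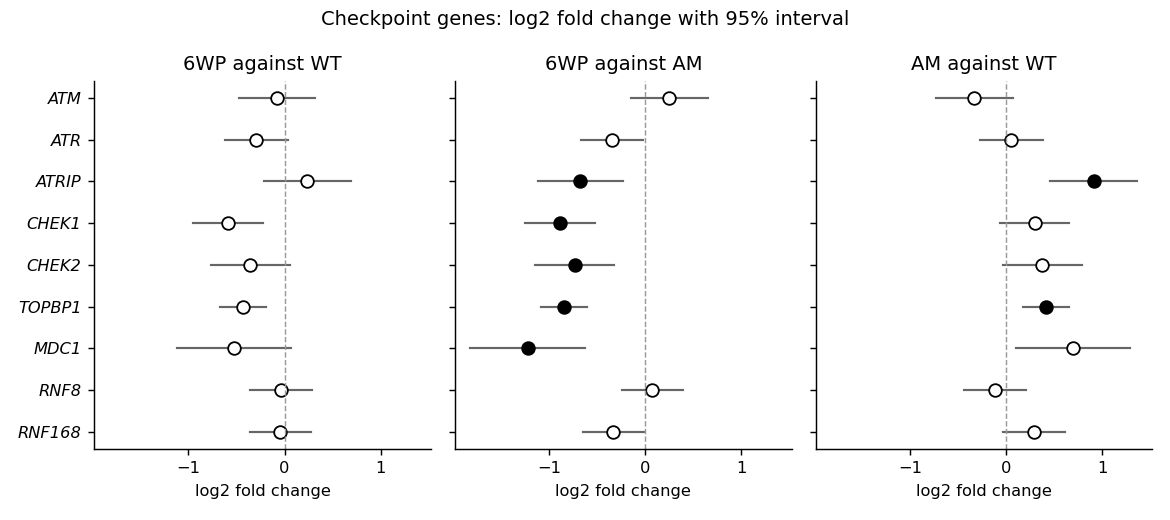
Log2 fold change of each gene (horizontal axis) in the 3 comparisons, with 95% intervals as lines, filled circles for an adjusted p under 0.05 and open circles otherwise. Filled circles appear for 5 genes below 0 in 6WP against AM and for ATRIP and TOPBP1 above 0 in AM against WT, and for no gene in 6WP against WT.

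Within the 6WP pair the members did not move together. On the log2 scale the second 6WP library was lower than the first by 0.96 for MDC1, 0.54 for CHEK2, 0.51 for ATRIP, 0.46 for CHEK1 and 0.27 for RNF8, and higher by 0.48 for ATM, 0.30 for RNF168 and 0.25 for ATR. TOPBP1 differed by 0.06 only. Summed, the 9 genes came to 459.6 and 451.5 CPM for WT, 615 and 592 for AM, and 392 and 328 for 6WP cells. The second 6WP library was also the one with the lower sum of proliferation genes.

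The calls in 6WP against AM changed with the libraries entered, and so did those over all genes, which numbered 3131 with all 6 libraries. Without either AM library 0 of the 9 genes were called and 179 or 116 of all genes, while the log2 fold changes of the 5 genes lay between -1.25 and -0.60. Without the first 6WP library 6 were called of the 9 and 6807 of all genes, 5 of the 6 being lower and ATM higher (log2 fold change 0.47, adjusted p = 0.00591), and without the second 7 were called and 4983 of all genes, with ATR and RNF168 added to the 5. Without the first or the second WT library 3 were called, and 1291 or 1329 of all genes, the 3 being CHEK1, TOPBP1 and MDC1. In these fits the library left alone in its group was assumed to vary like the other groups.

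**Figure D3:**
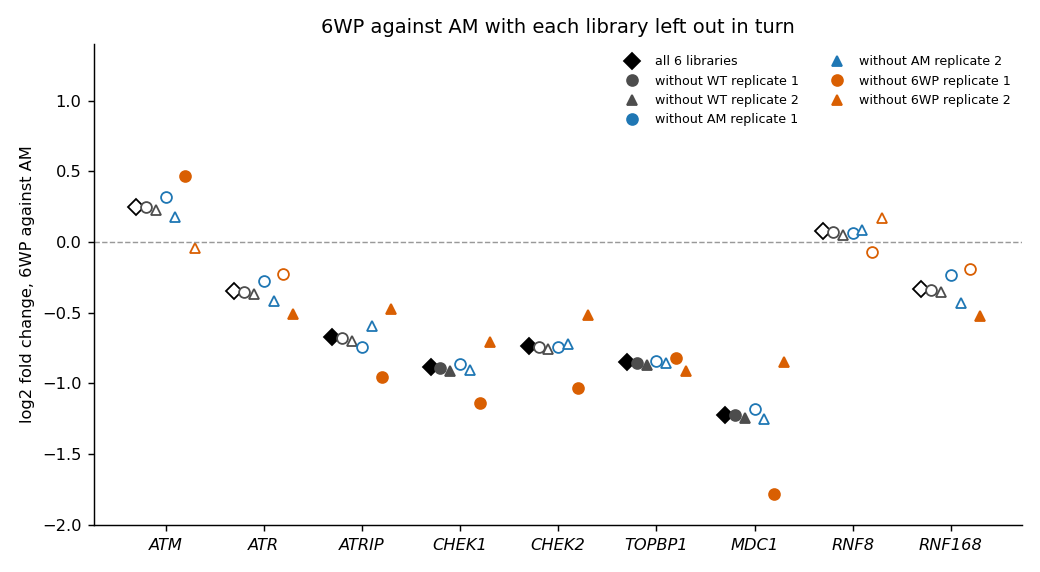
Log2 fold change of 6WP against AM for each gene with all 6 libraries (diamonds) and with each library left out, where filled symbols have an adjusted p under 0.05 and open symbols do not. TOPBP1 stays between -0.91 and -0.82, MDC1 ranges from -1.78 to -0.85, and all symbols are open for the 5 lower genes when an AM library is left out.

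The comparison of AM with WT cells shows the 6 weeks of culture without drug, and here ATRIP and TOPBP1 were higher in AM cells. These 2 of 9 genes were called, none lower, where 17.7% of all tested genes were called, 7.74% higher and 9.93% lower. ATRIP rose by 0.91 on the log2 scale (SE 0.20, adjusted p = 0.0202), to 188% of the WT level. TOPBP1 rose by 0.42 (SE 0.10, adjusted p = 0.0309), to 134%, and its adjusted p was 0.0622 with upper quartile scaling. ATR itself had a log2 fold change of 0.05 (95% interval -0.27 to 0.38, adjusted p = 0.810), so that the RNA of ATRIP rose while that of its kinase gave no detectable difference. MDC1 had the second largest value of the 9, 0.70 (SE 0.26, adjusted p = 0.0961) and was called by the Wald test of DESeq2 (adjusted p = 0.0367). The values of CHEK2, CHEK1 and RNF168 were 0.38, 0.30 and 0.29, with adjusted p of 0.169, 0.212 and 0.174. Those of RNF8 and ATM were -0.11 and -0.33, with adjusted p of 0.599 and 0.214. Harvest time and time in culture cannot be told apart, since WT cells were taken at week 0 and AM cells at week 6.

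The AM result also depended on which libraries entered. Leaving out any WT or AM library left 0 of the 9 genes called, and between 67 and 137 of all genes. Leaving out either 6WP library, or fitting only AM and WT libraries, gave 7 of 9, beside 6535, 6654 and 6620 of all genes against 2593 in the fit of all 6 libraries, with TOPBP1, ATRIP, CHEK1, CHEK2, MDC1 and RNF168 higher and ATM lower. The groups did not overlap for 8 of the 9 genes, 6 higher and 2 lower, where 73.8% of all genes did not overlap, 36.9% higher and 36.9% lower.

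In the comparison of 6WP with WT cells, survivors against the starting population, 0 of the 9 genes passed edgeR's test, where 3% of all tested genes did. CHEK1 (log2 fold change -0.59, SE 0.16, adjusted p = 0.0850) and TOPBP1 (-0.43, SE 0.10, adjusted p = 0.0697) had an unadjusted p under 0.05, as had 22.4% of all genes, and these 2 were called lower by the Wald test of DESeq2 and by edgeR's likelihood ratio test. The values of MDC1, CHEK2 and ATR were -0.52, -0.36 and -0.29, with adjusted p of 0.277, 0.286 and 0.272. For ATM, RNF8 and RNF168 the log2 fold changes were -0.08, -0.04 and -0.04, with 95% intervals of -0.48 to 0.32, -0.36 to 0.28 and -0.36 to 0.28. ATRIP, at 0.24 (95% interval -0.22 to 0.69), was the single gene with a positive value. The median of the 9 was -0.29, against 0.01 over all genes. Both 6WP libraries were below both WT libraries for 5 genes, ATR, CHEK1, CHEK2, TOPBP1 and MDC1, where 25.2% of all genes were lower without overlap. Without the first 6WP library 4 genes were called lower (CHEK1, CHEK2, TOPBP1 and MDC1), beside 3752 of all genes against 440 with all 6 libraries. Without the second, 4 were called lower (ATM, ATR, CHEK1 and TOPBP1) and ATRIP higher, beside 3870 of all genes.

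The 3 comparisons share libraries and are not independent of each other. A test over the 3 groups together gave an adjusted p of 0.00572 for TOPBP1, 0.0169 for CHEK1, 0.0258 for ATRIP, 0.0290 for MDC1 and 0.0448 for CHEK2. It gave 0.161 for RNF168, 0.170 for ATR, 0.310 for ATM and 0.784 for RNF8. TOPBP1, which had the smallest of these, was matched with the tested genes most like it across the 6 libraries, by the root mean square difference of centred log2 CPM among 12028 genes. The nearest were CANX, an ER chaperone, at 0.0334, NDUFA9, a subunit of respiratory complex I, at 0.0443, and MSH6, a mismatch repair protein, at 0.0482. CANX had 1690 and 1553 CPM in WT, 2202 and 2099 in AM, and 1208 and 1175 in 6WP libraries.

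Genes that work around the 9 were examined as further lists. In the ATR branch, 16 genes load or carry the signal: the RAD9A-HUS1-RAD1 clamp, the RFC loader subunits, replication protein A and the adaptor CLSPN, through which ATR reaches CHEK1. Of these, 11 were called lower in 6WP than in AM cells and none higher, where 9.68% of all tested genes were called lower. The median log2 fold change of the 16 was -0.72. CLSPN fell most, with 14.8 and 12.3 CPM in WT, 32.7 and 28.1 in AM, and 11.6 and 6.45 in 6WP libraries, which is a log2 fold change of -1.75 against AM (SE 0.26, adjusted p = 0.00577). The loader subunits RFC2 and RFC5 fell by 1.05 and 1.00 (adjusted p = 0.00545 and 0.00397), and the clamp subunit RAD9A fell by 0.90 (adjusted p = 0.00926). In AM against WT cells 7 of the 16 were called higher and none lower, where 7.74% of all tested genes were called higher. Among the 7 were CLSPN at 1.17, RFC2 at 0.74, RFC5 at 0.63 and RPA2 at 0.63 on the log2 scale (adjusted p = 0.0213, 0.0169, 0.0170 and 0.0292). Without the first or the second AM library 1 and 0 of the 16 were called in 6WP against AM, and 0 in AM against WT.

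In the ATM branch, 8 genes activate the kinase or fold the kinase family: the MRE11A-RAD50-NBN sensor, KAT5, ATMIN and the TELO2-TTI1-TTI2 chaperone. TTI1 and TTI2 were lower in 6WP than in AM cells by 0.61 and 0.63 on the log2 scale (adjusted p = 0.00833 and 0.0130). These members assist the folding of ATM and ATR alike. None of the 8 was called higher, although 4 had positive values, and the median was 0.03. The 2 called of the 8 stand beside 21.3% called over all tested genes. None of the 8 was called when either AM library was left out. TTI2 alone was called higher in AM than in WT cells, by 0.46 (adjusted p = 0.0385), where 7.74% of all tested genes were called higher.

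Among 15 mediators that act on chromatin beside MDC1, RNF8 and RNF168, 3 were called lower and 1 higher in 6WP than in AM cells. The median of the 15 was -0.22, and 21.3% of all genes were called. The count was 0 without either AM library, and 10 and 8 without the first and the second 6WP library. BARD1, a ubiquitin ligase subunit, fell by 0.88 (adjusted p = 0.00805), UBE2N, the conjugating enzyme that works with RNF8, fell by 0.53 (adjusted p = 0.0142), and RIF1, which limits resection of broken ends, fell by 0.37 (adjusted p = 0.0490). FAM175A, a scaffold of a complex that reads ubiquitin at breaks, was higher by 1.14 (adjusted p = 0.0130). FAM175A had 9.29 and 9.33 CPM in WT, 2.88 and 3.41 in AM, and 5.86 and 8.07 in 6WP libraries, so that AM was the group apart. In AM against WT cells BARD1 and BABAM1 were higher by 0.96 and 0.49 (adjusted p = 0.00765 and 0.0356), and FAM175A fell by 1.55 (adjusted p = 0.00655). These 3 of 15 stand beside 17.7% called over all tested genes, 7.74% higher and 9.93% lower.

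Of 10 cell cycle effectors of the checkpoint, CDC25A and CDK2 were lower in 6WP than in AM cells, by 1.34 and 0.84 on the log2 scale (adjusted p = 0.00711 and 0.0196). CDC25A is the phosphatase that CHEK1 marks for destruction, and it activates CDK2. These are 2 of 10 where 21.3% of all genes were called, and the count was 0 without either AM library and 10 and 5 without the first and the second 6WP library. All 10 values were negative, with a median of -0.64. The sum of the 10, relative to WT, was 1.21 in the first and 0.546 in the second 6WP library, the widest gap of the lists. CDC25A was higher in AM than in WT cells by 1.11 (adjusted p = 0.0139). Of 10 genes that reverse the signal, mostly phosphatases and deubiquitinases, 0 were called in 6WP against AM by edgeR's quasi-likelihood test, and 2 had an unadjusted p under 0.05. DESeq2 called 0, while the likelihood ratio test and upper quartile scaling each called 1, higher. The first of that list, PPM1D, which dephosphorylates ATM targets, had -0.27 (adjusted p = 0.267), and PPP2CA had -0.22 (adjusted p = 0.157). In AM against WT cells PPP4C was higher and OTUB2 lower, with log2 fold changes of 0.42 and -0.71 (adjusted p = 0.0325 and 0.0304). These 2 of 10 stand beside 17.7% called over all tested genes. With upper quartile scaling or library size alone, 1 of the 10 was called, lower.

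**Figure D4:**
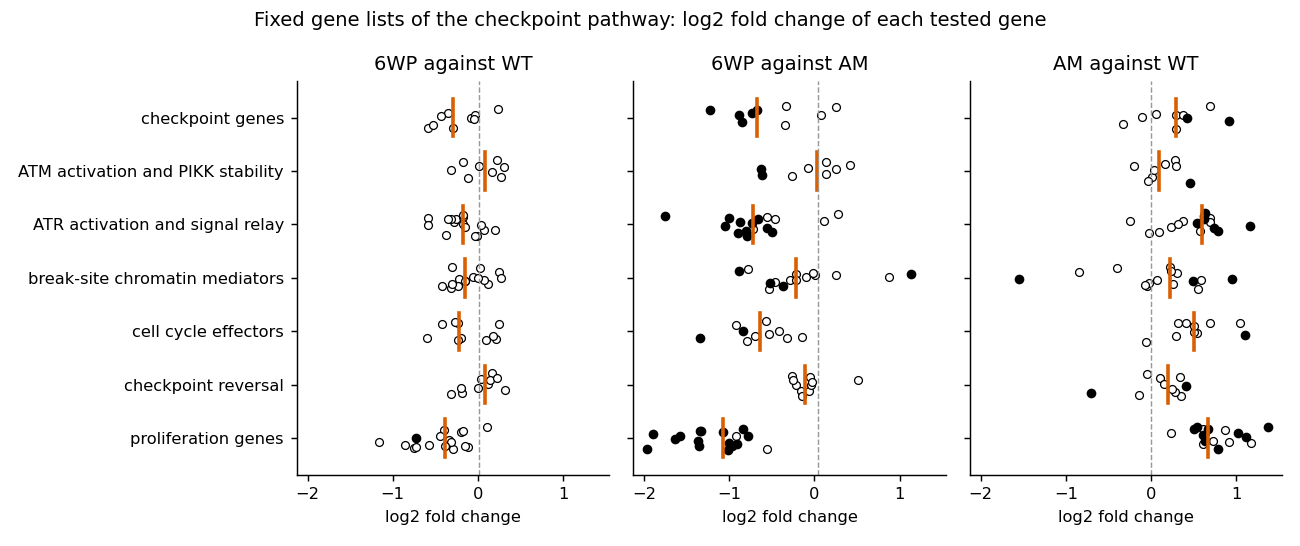
Log2 fold change of every tested gene of the 9 checkpoint genes and of 6 further lists in the 3 comparisons, with filled circles for an adjusted p under 0.05, an orange bar for the list's median and a dashed line for the median of all tested genes. In 6WP against AM the median of the proliferation genes (-1.07) lies furthest left of the dashed line. Those of the ATR branch (-0.72), the 9 genes (-0.67) and the cell cycle effectors (-0.64) also lie left of it. The chromatin mediators (-0.22) and reversal genes (-0.11) lie less far left, and the ATM branch (0.03) lies near the line.

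The 17 proliferation genes went the same way as the ATR branch and further: 15 were called lower in 6WP than in AM cells, with a median of -1.07. Those with the smallest p were CDC6, MCM6, MCM4 and PCNA (log2 fold changes of -1.96, -1.07, -1.33 and -1.36). Over all tested genes 9.68% were called lower in this comparison, and 7.74% higher in AM against WT. Without the first and the second AM library 4 and 2 of the 17 were called. In AM against WT cells 9 of the 17 were higher and none lower, with CDC6 at 1.11, and 0 were called when any WT or AM library was left out. Against WT, MCM4 was the gene called, lower by 0.72 in 6WP cells (adjusted p = 0.0464), and 0 were called with library size alone, when only those groups were fitted, or when any WT or AM library was left out. Some other settings with all 6 libraries called more of the 17 against WT, all lower. These were 2 with DESeq2 size factors in edgeR, 3 without the count filter or with a replicate block, and 5 by DESeq2 or the likelihood ratio test. The 6WP libraries differed here, with sums of the 17 at 0.897 of WT in the first and 0.560 in the second. Of the 17 values 16 were negative, with a median of -0.39. None of the genes in the other checkpoint lists was called in 6WP against WT by edgeR's quasi-likelihood test with all 6 libraries. At an unadjusted p under 0.05 there were 3 in the ATM branch, 3 in the ATR branch, 2 chromatin mediators, 1 effector and 0 reversal genes, and DESeq2 called 0, 1, 0, 1 and 0 of them. Against WT the result depended on the 6WP library. Relative to WT, the ATR branch summed to 0.988 in the first and 0.764 in the second, and the effectors to 1.21 and 0.546. Whether the differences of the 9 genes are separate from those of the proliferation genes was not tested, and in bulk RNA fewer cells in a phase of the cell cycle and less RNA per cell cannot be told apart.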

How the data were processed

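The authors aligned 100-base single end reads of 6 libraries to hg38 with STAR 2.5.3a and used StringTie 1.3.3 and edgeR 3.22.3. The submitters' processing notes also list featureCounts 1.5.3. The counting step, its strand setting and its annotation are not given in the sources used here, while the labels name a stranded kit. The deposited values are raw counts for 29804 gene symbols, without normalization or pooling of replicates.

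From these counts edgeR 4.0.16 in R 4.3.3 was run: filterByExpr with 3 groups, which kept 14672 genes, TMM factors, and a quasi-likelihood fit of all 6 libraries without covariates. Tests were two-sided and adjusted by Benjamini-Hochberg over all tested genes. They were also run on simulated counts with the same dispersion for every gene and group, which does not cover the wider spread of the 6WP pair. Standard errors were derived from the F statistic. CPM are TMM-normalised. RPKM used transcript lengths, and positions and overlaps came from GENCODE v44 on GRCh38. Windows of 100 bases along the MANE transcripts were searched for identical stretches in transcripts of other genes, without allowing mismatches. Totals were 21222201 to 35311945 counts, and a floor of 3 counts covers counting error only.

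The 9 genes and the lists were chosen with earlier results of these data known. All 9 are named. From every other list at most 4 genes with an adjusted p under 0.05 are named per comparison, by smallest p, or the first in list order where none passed. Library values are shown for CLSPN and FAM175A, which were chosen after their values were seen. Alternatives were other scalings and filters, the DESeq2 1.42.0 Wald test, the likelihood ratio test, a fit of the 2 groups compared, a replicate block and leaving out each library.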

Additional observations from a re-analysis of the deposited data

How the results depend on the processing

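Over 15 alternative settings for each of the 9 genes in 3 comparisons, 332 log2 fold changes kept direction and side of the threshold, 28 lost the call, 35 gained one and 10 changed sign. TOPBP1, CHEK1, CHEK2, MDC1 and ATRIP kept their sign in 6WP against AM in all 15. In 6WP against WT, the 440 genes called became 894 without the count filter, 1124 with DESeq2, 1492 with the likelihood ratio test and 96 when only those groups were fitted, and the 9 genes gave 1, 2, 2 and 0. Leaving out a library gave 0 to 3870 genes, and 0 to 5 of the 9. In 6WP against AM, the 3131 genes became 1309 and the 5 became 3 when only those groups were fitted, and leaving out a library gave 116 to 6807 genes and 0 to 7 of the 9. In AM against WT, the 2593 genes became 6620 and the 2 became 7 when only those groups were fitted, the 2 became 1 with upper quartile scaling, and leaving out a library gave 67 to 6654 genes and 0 to 7 of the 9. The causes were not tested. Upper quartile scaling changed the higher and lower calls from 1711 and 1420 to 2276 and 1062 in 6WP against AM, and from 1136 and 1457 to 689 and 1832 in AM against WT, where library size alone gave 729 and 1664. ATR in AM against WT changed sign with upper quartile scaling (-0.037) and with library size alone (-0.0046). With a library left out, these log2 fold changes crossed 0: in 6WP against WT ATM (-0.36 to 0.13), ATRIP (-0.056 to 0.45), RNF8 (-0.19 to 0.067) and RNF168 (-0.23 to 0.085), in 6WP against AM ATM (-0.041 to 0.47) and RNF8 (-0.070 to 0.17), and in AM against WT ATR (-0.026 to 0.11).

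The labels number the replicates 1 and 2 in each group but do not say that a number marks a shared day or culture, and deviations of same-numbered libraries correlated at 0.09, -0.02 and 0.04 in the comparisons of 6WP with WT, 6WP with AM and AM with WT, so the numbers were not taken as pairing. With the replicate number as a block, 393, 3069 and 2485 genes were called in these comparisons and 0, 4 and 2 of the 9 genes, with ATRIP in 6WP against AM at an adjusted p of 0.0513. With 2 libraries a group, and with 6WP libraries apart by 0.46 to 0.96 on the log2 scale for MDC1, CHEK2, ATRIP, ATM and CHEK1, differences smaller than the intervals given were not detectable.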

Other observations

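The 9 genes lie on chromosomes 3, 6, 11 and 22, and the tested genes within 5 Mb of each were set beside them. In 6WP against AM, the medians of the neighbours' log2 fold changes ran from -0.08 to 0.13, for 32 to 156 genes around each of the 9. Around MDC1, which fell by 1.22 on the log2 scale, the 156 neighbours had a median of 0.13, with 15 higher and 12 lower. Around TOPBP1, the 50 neighbours had a median of -0.05, with 6 higher and 8 lower, and in AM against WT a median of 0.22, with 9 higher and 4 lower, beside a log2 fold change of 0.42 for TOPBP1 itself. Around ATRIP, the 148 neighbours had a median of 0.19 in AM against WT, with 25 higher and 5 lower, beside a log2 fold change of 0.91 for ATRIP itself. Positions were matched for 12885 of the tested genes (87.8%).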
